A study of Homo sapiens with 47 samples.

Results

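The linker histone genes of the replication-dependent histone (RDH) cluster on chromosome 6 were examined in HEK293T cells. They were taken as the rows of the authors' table of ELL ChIP-seq signal whose gene name begins with HIST1H1, which gave 8 of its 90 RDH genes, and were matched by Ensembl identifier to the RNA-seq counts. Of the 8, 6 are protein-coding: HIST1H1A, HIST1H1B, HIST1H1C, HIST1H1D, HIST1H1E and HIST1H1T, whose newer symbols are H1-1, H1-5, H1-2, H1-3, H1-4 and H1-6. The other 2 are the pseudogenes HIST1H1PS1 (H1-12P) and HIST1H1PS2. GENCODE 44 gives HIST1H1PS2 the symbol H3P26, a name of the H3 class, so its values are given but sums over linker histone genes hold the 7 others.

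RNA-seq of total RNA depleted of ribosomal RNA was available for 3 libraries of wild-type HEK293T cells, a human embryonic kidney line, and for 3 libraries of EAF1-mutant cells. The mutant was made in HEK293T by a CRISPR knock-in that changed both EAF1 alleles, so that a short stretch of the protein is replaced by alanines. ELL ChIP-seq was available for wild-type cells alone, with 2 replicates and 1 input. The RNA-seq libraries summed to 59137210, 52541541 and 55637032 counts in wild-type cells and to 57198018, 53369621 and 66611451 in EAF1-mutant cells. The study's methods name a single clonal mutant line, so the mutation and other properties of that line cannot be told apart. The methods call replicates biological in general and the labels name no cultures, so p-values measure the spread between libraries of these 2 lines.

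Linker histones bind the nucleosome where DNA enters and leaves it and help to fold chromatin, and their RDH subtypes are made mainly in S phase, when DNA is copied. The mRNAs of RDH genes carry no poly(A) tail and end in a stem-loop, so they are measured in ribosome-depleted rather than poly(A)-selected RNA. ELL is an elongation factor of RNA polymerase II, and EAF1 is its partner in the little elongation complex, which Mediator recruits through the subunit MED26.

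The promoters of the 6 protein-coding genes are shown because genes with very different RNA levels share short elements there. Each line gives the 200 bases before the RefSeq start of transcription (GRCh38.p14), 5′ to 3′ on the strand of the gene. Capitals mark matches, on either strand, to AAACACA, known as an element of H1 promoters, to CCAAT, to TATAAA and to GGGCGG. All 6 protein-coding genes had an entry in the RefSeq table, and the pseudogenes had none. The windows lie at chr6:26056471-26056670 (minus strand) for HIST1H1C, chr6:26156129-26156328 (plus strand) for HIST1H1E, chr6:26234988-26235187 (minus strand) for HIST1H1D, chr6:27867589-27867788 (minus strand) for HIST1H1B, chr6:26017788-26017987 (minus strand) for HIST1H1A and chr6:26108136-26108335 (minus strand) for HIST1H1T.
HIST1H1C: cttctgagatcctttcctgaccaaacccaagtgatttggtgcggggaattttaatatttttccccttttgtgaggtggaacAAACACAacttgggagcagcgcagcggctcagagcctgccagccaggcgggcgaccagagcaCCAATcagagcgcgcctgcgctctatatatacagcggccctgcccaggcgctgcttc
HIST1H1E: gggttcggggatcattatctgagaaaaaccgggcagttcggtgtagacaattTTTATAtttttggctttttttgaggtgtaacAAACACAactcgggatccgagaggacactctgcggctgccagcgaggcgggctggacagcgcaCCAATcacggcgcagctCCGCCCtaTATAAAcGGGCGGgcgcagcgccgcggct
HIST1H1D: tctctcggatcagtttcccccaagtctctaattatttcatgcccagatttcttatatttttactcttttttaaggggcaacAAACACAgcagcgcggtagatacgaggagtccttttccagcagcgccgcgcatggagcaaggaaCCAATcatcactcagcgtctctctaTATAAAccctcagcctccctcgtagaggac
HIST1H1B: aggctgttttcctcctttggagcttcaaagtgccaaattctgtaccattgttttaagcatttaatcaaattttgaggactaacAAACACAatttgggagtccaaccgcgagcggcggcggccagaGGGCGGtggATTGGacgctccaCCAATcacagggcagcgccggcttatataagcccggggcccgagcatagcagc
HIST1H1A: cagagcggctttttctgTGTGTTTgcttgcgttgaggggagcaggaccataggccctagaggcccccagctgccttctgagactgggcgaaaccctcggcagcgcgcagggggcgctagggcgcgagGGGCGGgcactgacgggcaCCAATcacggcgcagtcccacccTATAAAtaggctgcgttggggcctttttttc
HIST1H1T: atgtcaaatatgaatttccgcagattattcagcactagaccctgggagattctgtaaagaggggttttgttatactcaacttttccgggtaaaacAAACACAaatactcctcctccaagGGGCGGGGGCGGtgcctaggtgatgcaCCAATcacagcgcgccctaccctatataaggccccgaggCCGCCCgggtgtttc

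AAACACA was found in 6 of these 6 windows, in 0 of 55 windows of protein-coding core RDH genes and in 3.77% of all 35116 promoter windows of the same length. It began 119 bases before the start in HIST1H1C and HIST1H1D, 117 in HIST1H1E and HIST1H1B and 105 in HIST1H1T, while in HIST1H1A the match was on the other strand and began 183 bases before the start. CCAAT was also found in 6 of 6, beside 45 of 55 core windows and 28.03% of all windows, and 1 CCAAT of each gene began 53 to 57 bases before the start. TATAAA was found in 3 of 6 (HIST1H1A, HIST1H1D and HIST1H1E), in 32 of 55 core windows and in 8.59% of all windows. GGGCGG was found in 4 of 6, in 12 of 55 core windows and in 40.1% of all windows. A match is a description of the letters, and binding at these sites was not measured.

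The 3′ ends were alike as well. A search after the stop codon for a 6-base stem with a 4-base loop found 1 such stem-loop in each of the 6 protein-coding genes, 4 or 5 bases before the annotated end of the transcript. Capitals mark the stem, which was identical in all 6. HIST1H1C (chr6:26055744-26055759, minus strand) has the loop found also in HIST1H1D, HIST1H1E and HIST1H1B, and HIST1H1A (chr6:26017037-26017052, minus strand) the loop found also in HIST1H1T.
HIST1H1C: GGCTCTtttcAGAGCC
HIST1H1A: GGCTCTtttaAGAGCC

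The genes lie apart within the cluster. HIST1H1A (chr6:26017085-26017732), HIST1H1C (chr6:26055787-26056428), HIST1H1T (chr6:26107419-26108136), HIST1H1E (chr6:26156354-26157107), HIST1H1PS1 (chr6:26195554-26196633) and HIST1H1D (chr6:26234268-26234933) fall within 218 kb, and HIST1H1B (chr6:27866849-27867529) lies 1632 kb beyond HIST1H1D. HIST1H1PS2 (chr6:26016379-26016601) stands 483 bp from HIST1H1A. Each protein-coding gene is a single exon in GENCODE 44. Coding sequences of HIST1H1C and HIST1H1E, the most alike pair of the 6, were identical at 80.9% of aligned bases, and those of HIST1H1C and HIST1H1T, the least alike, at 68.5%. None of the 8 transcripts shared a stretch of 50 bases with another, so a read of 100 bases, the length used, has an exact match in at most 1 of them. HIST1H1PS1 shares 533 exonic bases with a gene on the opposite strand, ENSG00000282988, and since the strand setting of the counting is not given in the sources used here, its counts are uncertain.

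RNA levels of the 8 genes fell into 3 abundant genes and 5 near the limit of detection. Levels were computed as CPM, counts scaled for depth with library sizes adjusted by edgeR's TMM method, divided by the length in kb that the authors' table gives each gene. HIST1H1C, one of the subtypes found in most somatic cells, stood at 1284, 1171 and 1329 CPM per kb in the 3 wild-type libraries. HIST1H1E, also widespread, stood at 1024, 958.0 and 1056 CPM per kb. HIST1H1D stood at 246.7, 246.0 and 263.2 CPM per kb. The ranges of these 3 genes did not overlap, and HIST1H1C was 1.25-fold above HIST1H1E, itself 4.02-fold above HIST1H1D. Among the 90 RDH genes they held ranks 2, 6 and 22 by mean wild-type level. These ranks depend on the length used, which was 642 to 754 bases for these 3 genes but 29685 for the core gene HIST2H2BF. Ranks among RDH genes with exon length were not tested.

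**Figure D1:**
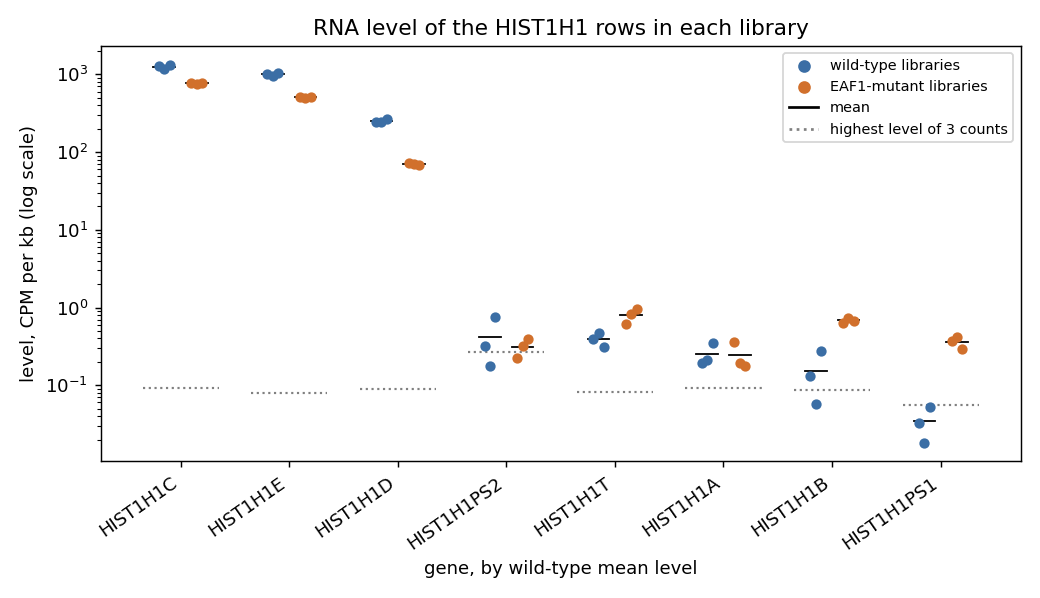
Level of each HIST1H1 gene in CPM per kb (log scale) in the 3 wild-type and 3 EAF1-mutant libraries. Points are libraries, bars are means and dotted lines the highest level that 3 counts stand for in any library. HIST1H1C, HIST1H1E and HIST1H1D lie far above the other 5, and each is lower in every EAF1-mutant library than in any wild-type one.

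The next gene, HIST1H1PS2, was 605-fold below HIST1H1D, at a mean of 0.416 ± 0.301 CPM per kb (SD, n = 3) that rests on 2 to 9 counts a library. HIST1H1T, the subtype of spermatocytes, averaged 0.392 ± 0.0781 CPM per kb (SD, n = 3), from 12 to 17 counts. HIST1H1A averaged 0.250 ± 0.0837 CPM per kb (SD, n = 3), from 7 to 12 counts. HIST1H1B, which many dividing cells make, averaged 0.154 ± 0.110 CPM per kb (SD, n = 3), from 2 to 10 counts. HIST1H1PS1 was lowest, at 0.0343 ± 0.0169 CPM per kb (SD, n = 3), from 1 to 3 counts. Counts under 3 were found in wild-type replicate 2 for HIST1H1PS2 and HIST1H1B and in wild-type replicates 1 and 2 for HIST1H1PS1. The ranges of neighbors in this order overlapped from HIST1H1PS2 down to HIST1H1B, so the order of adjacent genes there is not resolved, though HIST1H1T lay wholly above HIST1H1B. HIST1H1PS1 lay below the range of HIST1H1B in CPM per kb. In CPM not divided by length these 2 ranges overlapped, at 0.0198 to 0.0561 and 0.0396 to 0.187. HIST1H1C, HIST1H1D and HIST1H1E together made up 99.96% to 99.97% of the summed level of the 7 linker histone genes in wild-type libraries.

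The RNA-seq comparison asked how these genes respond when EAF1 is mutated. HIST1H1C, HIST1H1E and HIST1H1D fell, each by a different amount, while HIST1H1B, HIST1H1PS1 and HIST1H1T, all scarce, rose. The call of HIST1H1T was not stable. EAF1 RNA itself ran from 56.5 to 58.4 CPM in wild-type libraries, and in EAF1-mutant ones from 17.9 to 19.7, a log2 fold change of -1.61 (edgeR, SE 0.05, adjusted p = 2.48e-18). Because the knock-in leaves the RNA countable, this level does not check the labels. Of the 8 genes, 6 had enough counts to be tested with edgeR, and HIST1H1A and HIST1H1PS2 did not. To be called, a gene needed a Benjamini-Hochberg adjusted p below 0.01 in the quasi-likelihood test of edgeR over 28025 genes and a log2 fold change beyond 0.5 either way. By this rule 3 of the 8 were lower and 3 higher, where 9.36% of all tested genes were lower and 11.0% higher. Of the 3 higher, HIST1H1B and HIST1H1PS1 were admitted to the test by their mutant libraries, which favored a higher call, so that count is not comparable with the share. Over all tested genes the log2 fold change had a median of 0.01, and of 0.13 with libraries scaled by their totals alone.

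HIST1H1D fell furthest of the 8. Its level was 72.2, 71.0 and 69.1 CPM per kb in the 3 EAF1-mutant libraries against at least 246.0 in each wild-type one, a log2 fold change of -1.83 (edgeR, standard error (SE) 0.04, adjusted p = 4.17e-20). The groups lay far apart, and from the lowest log2 fold change HIST1H1D ranked 2 of the 71 RDH genes tested. HIST1H1E stood at 516.9, 497.5 and 506.7 CPM per kb in EAF1-mutant libraries, a log2 fold change of -1 (edgeR, SE 0.04, adjusted p = 6.65e-16). HIST1H1C stood at 776.2, 757.5 and 785.4 CPM per kb, a log2 fold change of -0.71 (edgeR, SE 0.04, adjusted p = 9.69e-13). In each of the 3 genes all mutant libraries lay below all wild-type ones. In bulk RNA, fewer cells in S phase and less histone RNA per cell cannot be told apart.

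The genes that rose remained scarce. HIST1H1B had 5, 2 and 10 counts in wild-type and 26, 28 and 32 in EAF1-mutant libraries, which puts its mutant level at 0.687 ± 0.0495 CPM per kb (SD, n = 3). The groups did not overlap, and the log2 fold change was 2.12 (edgeR, SE 0.39, adjusted p = 6.62e-05). It was 2.78 without wild-type replicate 3 and 1.75 without wild-type replicate 2. As a ratio of pooled counts scaled for depth it was 4.41 with an exact 95% interval of 2.60 to 7.92, which covers counting error only. HIST1H1PS1 had 2, 1 and 3 counts in wild-type and 24, 25 and 22 in EAF1-mutant libraries, a pooled ratio of 10.3 with an interval of 4.51 to 29.1 (edgeR adjusted p = 2.56e-06). With so few wild-type counts its fitted log2 fold change of 3.30 is uncertain. It was 3.02 without wild-type replicate 2 and 3.68 without wild-type replicate 3. Of the wild-type libraries, 1 for HIST1H1B and 0 for HIST1H1PS1 met the count minimum of the filter, against 3 mutant libraries each.

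HIST1H1T had 16, 17 and 12 counts in wild-type and 26, 33 and 48 in EAF1-mutant libraries. The groups did not overlap, and the log2 fold change was 1.04 (edgeR, SE 0.28, adjusted p = 0.00348). This call was not stable: with DESeq2 the adjusted p was 0.0324, and it was also lost without wild-type replicate 1 or 3 or EAF1-mutant replicate 2 or 3 (edgeR, log2 fold changes of 0.87 to 1.03), while over all alternatives the adjusted p ran from 0.00123 to 0.0324. HIST1H1A had 14, 7 and 8 counts in EAF1-mutant libraries and HIST1H1PS2 had 3, 4 and 6. Both overlapped with wild-type, with pooled count ratios of 0.973 (95% interval 0.553 to 1.72) and 0.756 (0.331 to 1.70), and changes within these intervals cannot be told from none at this depth.

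**Figure D2:**
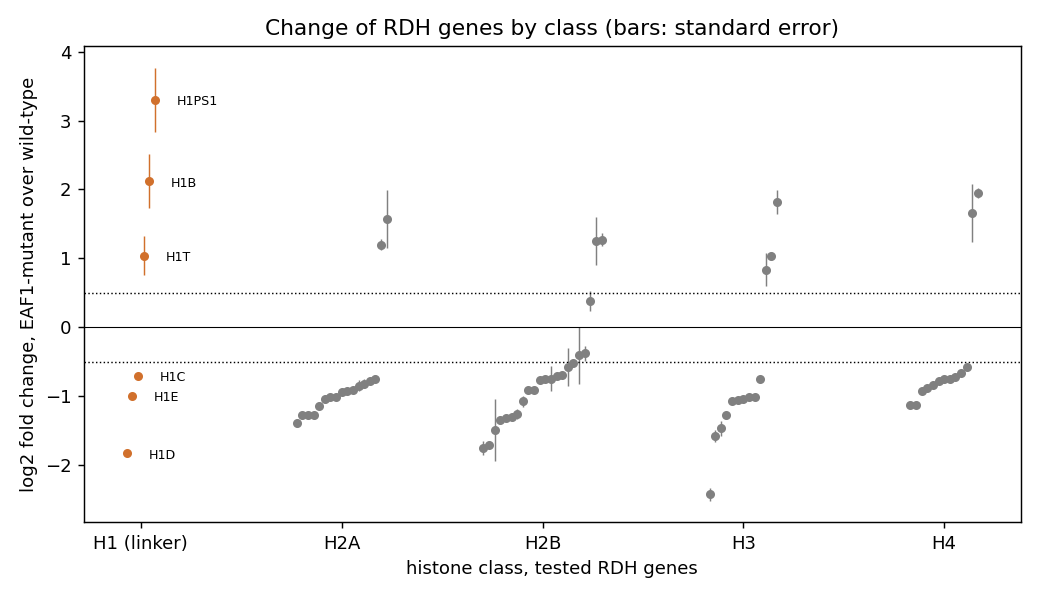
Log2 fold change in EAF1-mutant over wild-type cells of the 71 tested RDH genes by histone class, with standard errors from edgeR. Dotted lines mark the fold limits of 0.5 in size. The H1 class spans from -1.83 (HIST1H1D) to 3.30 (HIST1H1PS1), and the 3 abundant H1 genes lie among the core genes that fell.

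The loss of HIST1H1 RNA was large in sum. Summed CPM of the 7 linker histone genes was 1761, 1638 and 1825 in wild-type and 937.7, 910.4 and 934.0 in EAF1-mutant libraries, a log2 ratio of -0.91. The groups did not overlap, and the exact two-sided permutation test gave p = 0.1, the smallest value that 3 against 3 libraries allow. All exact tests below share that limit.

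The make-up of this pool shifted too. HIST1H1C rose from 50.2%, 49.3% and 50.2% of the summed level per kb in wild-type libraries to 56.8%, 57.0% and 57.6% in EAF1-mutant ones (exact permutation p = 0.1). HIST1H1E went from 40.1%, 40.3% and 39.9% to 37.8%, 37.5% and 37.2% (exact permutation p = 0.1). HIST1H1D went from 9.66%, 10.4% and 9.94% to 5.28%, 5.345% and 5.07% (exact permutation p = 0.1). HIST1H1C thus took a larger share of a smaller pool in every mutant library, and these shares do not depend on the scaling between libraries. The 4 scarce linker histone genes together grew from between 0.0293% and 0.0372% to between 0.145% and 0.164%.

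**Figure D3:**
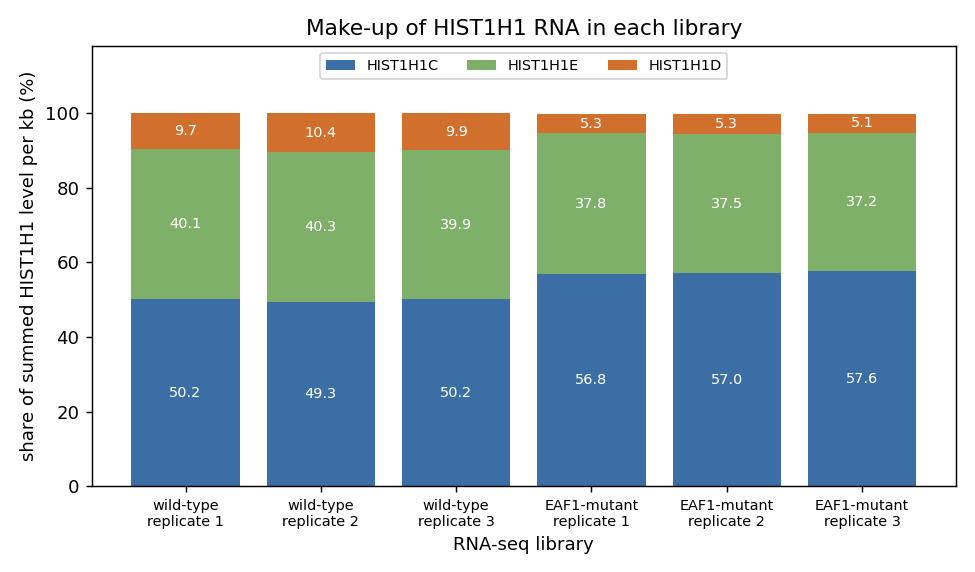
Share (%) of HIST1H1C, HIST1H1E and HIST1H1D in the summed level per kb of the 7 linker histone genes in each RNA-seq library. The HIST1H1D share is 9.66% to 10.4% in wild-type and 5.07% to 5.345% in EAF1-mutant libraries.

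The difference in response was tested for the 3 pairs among these genes, as the ratio of levels within each library. HIST1H1C was 5.20, 4.76 and 5.05 times HIST1H1D in wild-type and 10.7, 10.7 and 11.4 times in EAF1-mutant libraries, a difference of 1.13 on the log2 scale (exact permutation p = 0.1). HIST1H1E was 4.15, 3.89 and 4.01 times HIST1H1D and became 7.16, 7.01 and 7.33 times, a difference of 0.83 (exact permutation p = 0.1). HIST1H1C was 1.25, 1.22 and 1.26 times HIST1H1E and became 1.5, 1.52 and 1.55 times, a difference of 0.29 (exact permutation p = 0.1). In all 3 pairs the ratios of the groups did not overlap, and the differences exceeded the SD between replicates, which was at most 0.065 on the log2 scale.

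Against core histones, the summed level per kb of the protein-coding HIST1H1 genes had a log2 ratio of -0.90, and that of protein-coding core RDH genes one of -0.93. The 6 protein-coding HIST1H1 genes stood at 15.6%, 16.6% and 16.4% of the summed level per kb of protein-coding core RDH genes in wild-type libraries, and at 16.59%, 16.03% and 16.95% in EAF1-mutant ones. The groups overlapped (exact permutation p = 0.6). These percentages, and those by class below, rest on the authors' gene lengths and on counts whose treatment of multi-mapped reads is not stated. They are not ratios of molecules. By class, the HIST1H1 sum was 40.9% ± 1.61 of the H2A sum in wild-type and 46.7% ± 2.50 in EAF1-mutant cells (SD, n = 3, exact permutation p = 0.1), but 104% ± 2.83 of the H2B sum in wild-type and 90.1% ± 1.69 in EAF1-mutant cells (SD, n = 3, exact permutation p = 0.1). The H2B difference of -13.5 depended on length and was -6.47 with exon length in place of the authors' gene length. Of the H4 sum it was 68.96% ± 1.83 and 63.9% ± 1.09 (SD, n = 3, exact permutation p = 0.1). Of the H3 sum it was 76.4% ± 2.75 and 81.1% ± 1.92 (SD, n = 3), and there the groups overlapped (exact permutation p = 0.2). The H3 difference of 4.72 was 3.04 with exon length. Of the 56 tested protein-coding core genes, 47 were lower and 6 higher, beside 9.36% and 11.0% of all tested genes, with a median log2 fold change of -0.90 (0.01 over all tested genes). HIST1H1C, at -0.71, fell less than that core median, and HIST1H1E, at -1, and HIST1H1D, at -1.83, fell more. From the lowest log2 fold change HIST1H1C, HIST1H1E and HIST1H1D ranked 50, 29 and 2 of the 71 RDH genes tested.

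The RDH genes whose response was most like each member were found by the root mean square difference of centred log2 CPM over the 6 libraries, among 70 other tested RDH genes. HIST1H4E, HIST1H2BN and HIST1H2BD were nearest to HIST1H1C, with differences of 0.0130, 0.0200 and 0.0359. HIST1H3J, HIST1H2AM and HIST1H2AK were nearest to HIST1H1E, with differences of 0.0276, 0.0329 and 0.0455. HIST1H1D had no neighbor as close: HIST3H2BA, HIST3H2BB and HIST2H3PS2, all named for other histone clusters, came nearest, with differences of 0.0704, 0.105 and 0.150.

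Genes beside the members on the chromosome did not always share their response. HIST1H1A, with 7 to 14 counts in any library, is 2.76 kb from HIST1H3A, at 322.7 ± 26.0 CPM per kb in wild-type cells (SD, n = 3) with a log2 fold change of -1.06 (edgeR, SE 0.05, adjusted p = 7.87e-15). HIST1H1B rose although HIST1H2AL, 1.10 kb away and at 188.2 ± 18.2 CPM per kb (SD, n = 3), fell with a log2 fold change of -1.14 (edgeR, SE 0.05, adjusted p = 2.17e-14). HIST1H3I, on its other side, was near 0 at 0.0624 CPM per kb and was not tested. HIST1H1PS1 rose together with HIST1H3D, 0.206 kb away, which had a log2 fold change of 1.82 (edgeR, SE 0.17, adjusted p = 5.47e-09). The gene on the opposite strand of HIST1H1PS1, ENSG00000282988, fell with a log2 fold change of -0.90 (edgeR, SE 0.05, adjusted p = 7.55e-13). HIST1H2AD, the RDH gene next after HIST1H3D, had one of -0.94 (edgeR, SE 0.05, adjusted p = 3.33e-13). Whether the counts of ENSG00000282988 hold reads of these RDH genes was not tested, so its fall may not be separate from theirs.

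HIST1H4C and HIST1H2BC, on either side of HIST1H1T, fell with log2 fold changes of -0.78 and -0.76, while HIST1H1T rose by a call that was not stable. HIST1H2AC and HIST1H2BD, on either side of HIST1H1E, had -0.82 and -0.77, smaller falls than that of HIST1H1E. HIST1H4D, beside HIST1H1PS1, had -0.93. HIST1H3C beside HIST1H1C, HIST1H2APS3 and HIST1H4F beside HIST1H1D, and HIST1H2APS2 beside HIST1H1PS2 averaged at most 0.213 CPM per kb in wild-type cells and were not tested. Of 20 other protein-coding genes within the span of the cluster 15 were tested, with a median log2 fold change of -0.04. By edgeR 1 was lower (ENSG00000282988, whose counts may hold reads of RDH genes) and 1 higher (PRSS16, a serine protease, at 0.79), beside 9.36% and 11.0% of all tested genes. ZNF322 and ABT1, the most abundant after ENSG00000282988, had log2 fold changes of -0.04 and -0.10.

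By ELL signal in wild-type cells, HIST1H1C and HIST1H1E stood apart from the other HIST1H1 genes, and HIST1H1D did not. The authors' signal is coverage in CPM summed over the gene, divided here by length in kb and by the input of the same gene. HIST1H1C had 263.9 and 477.6 per kb in the 2 ELL replicates over an input of 42.6, ratios of 6.20 and 11.2. HIST1H1E had 242.2 and 378.9 over an input of 51.6, ratios of 4.69 and 7.34. Among the 90 RDH genes HIST1H1C ranked 6 and 3 in the replicates and HIST1H1E 12 and 7, so both stood near the top in each. With the input subtracted in place of divided, HIST1H1C ranked 1 and HIST1H1E 5.

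HIST1H1D had 145.5 and 65.9 per kb over an input of 49.2, ratios of 2.96 and 1.34 that ranked 21 and 50 of 90. HIST1H1A had 90.5 and 5.78 per kb over an input of 28.4, ratios of 3.19 and 0.204. These replicates ranked HIST1H1A 19 and 85 of 90, so ELL at this gene is not resolved by these data. HIST1H1B lay below input in both replicates, with 23.3 and 2.36 per kb over 36.9 and ratios of 0.631 and 0.0640. HIST1H1T was close to input, with ratios of 1.06 and 0.822. HIST1H1PS1 had ratios of 1.55 and 2.16 and HIST1H1PS2 of 2.62 and 1.59.

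**Figure D4:**
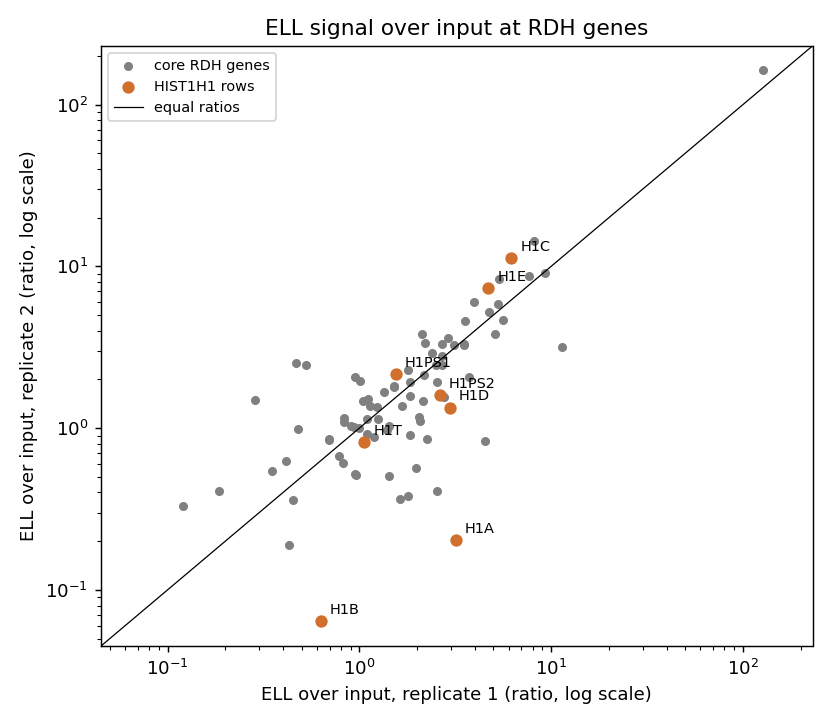
Ratio of ELL signal to input in replicate 1 and replicate 2 (both log scales) for 86 RDH genes; 4 genes at 0 in a replicate cannot be drawn. HIST1H1C and HIST1H1E lie high in both replicates, HIST1H1B low in both, and HIST1H1A lies far from the line of equal ratios.

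The 65 protein-coding core genes had median ratios of 1.79 and 1.64, below both ratios of HIST1H1C and HIST1H1E and above both ratios of HIST1H1B and HIST1H1T. HIST1H1D lay above the core median in replicate 1 and below it in replicate 2. The number of reads behind each signal value is not in the table, and the input has no replicate, so no interval is given. HIST1H4C, which lies between HIST1H1C and HIST1H1T at 3.11 kb from HIST1H1T, had the highest ratios of all 90 genes, 127 and 165, over the lowest input, 2.201 per kb. Its ELL signal of 279.1 and 362.2 per kb was of the size of that of HIST1H1C, and with the input subtracted it ranked 3, after HIST1H1C. HIST1H1T itself had 49.2 and 38.2 per kb. HIST1H3A near HIST1H1A and HIST1H2AL near HIST1H1B had ratios of 7.62 and 8.77 and of 5.33 and 8.35. HIST1H2AL had a low input, 10.0 per kb, and with the input subtracted it ranked 27. A high ratio thus did not extend from HIST1H2AL to HIST1H1B in either replicate.

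**Figure D5:**
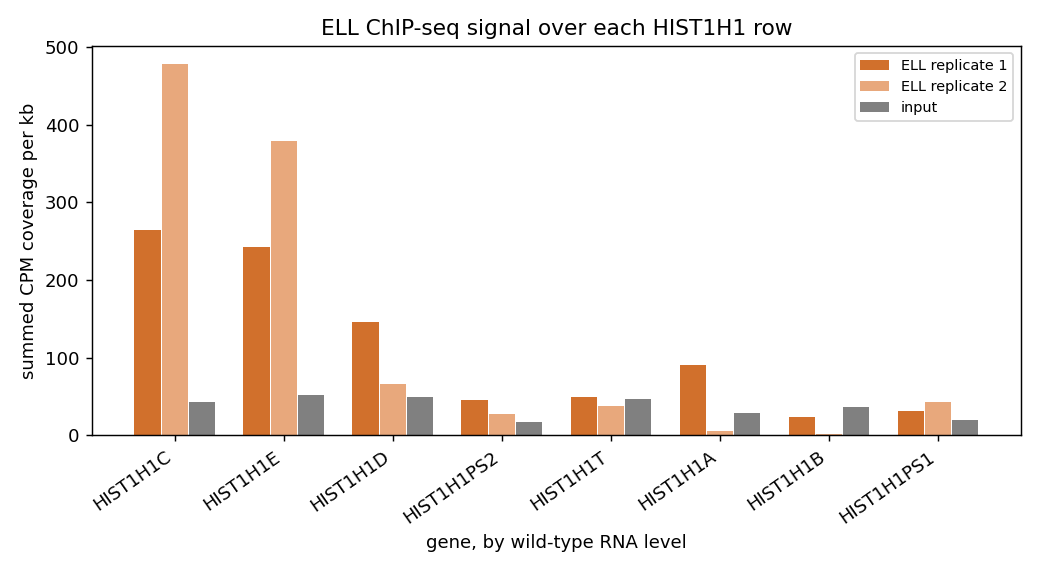
ELL ChIP-seq signal (summed CPM coverage per kb) over each HIST1H1 gene in both ELL replicates and the input, in order of wild-type RNA level. HIST1H1C reaches 263.9 and 477.6 against an input of 42.6, and HIST1H1B stays below its input of 36.9.

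Signal and change in RNA were not ordered alike among the 3 abundant genes. HIST1H1C, with the highest ratios of the 3, had the smallest fall, and HIST1H1D, with the lowest, had the largest. The scarce genes HIST1H1B, HIST1H1T and HIST1H1PS1 had mean ELL ratios of 0.348, 0.941 and 1.86, below the 2.15 of HIST1H1D, and rose. For HIST1H1T that call was not stable, and HIST1H1B and HIST1H1PS1 were admitted to the test by their mutant libraries. HIST1H1A and HIST1H1PS2, at 1.70 and 2.11, lay below HIST1H1D too, and no change was resolved for them. Across RDH genes, the study reports a larger decrease for those associated with ELL and MED26 than for others. With so few genes no relation was tested here.

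Of 19 genes whose products carry, import or compete with linker histones, 3 were lower and 0 higher by edgeR, beside 9.36% and 11.0% of all tested genes (4 and 0 by DESeq2, and 13 and 2 at an unadjusted edgeR p under 0.05), with a median log2 fold change of -0.23. The 3 were HMGN5, which binds nucleosomes and counteracts linker histones, at -1.51 (edgeR, SE 0.08, adjusted p = 6.51e-14), the histone chaperone NPM1 at -0.67 (edgeR, SE 0.04, adjusted p = 1.44e-13) and HMGN1 at -0.50 (edgeR, SE 0.04, adjusted p = 7.87e-11). PTMA and SET, the most abundant of the list beside NPM1, had log2 fold changes of 0.02 and -0.15.

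Of 18 factors of histone gene transcription and 3′ end formation, 0 were lower and 2 higher by edgeR, beside 9.36% and 11.0% of all tested genes (0 and 2 by DESeq2, and 7 and 6 at an unadjusted edgeR p under 0.05), with a median log2 fold change of 0.00. The 2 were NFYC, a subunit of the factor that binds CCAAT, at 0.68 (edgeR, SE 0.04, adjusted p = 4.87e-12) and the cell cycle regulator E2F1 at 0.56 (edgeR, SE 0.04, adjusted p = 9.14e-11). CPSF2, CPSF3 and CASP8AP2, the most abundant, had log2 fold changes of -0.19, 0.01 and -0.42. Of 22 genes of DNA replication, 2 were lower and 0 higher by edgeR, again beside 9.36% and 11.0% (2 and 0 by DESeq2, and 10 and 5 at an unadjusted edgeR p under 0.05), with a median of -0.06. PCNA, the sliding clamp of DNA polymerase, had a log2 fold change of -0.76 (edgeR, SE 0.04, adjusted p = 1.70e-14) and POLD3 one of -0.51 (edgeR, SE 0.04, adjusted p = 5.94e-10). MCM7, MCM4 and MCM2, subunits of the replicative helicase and the most abundant of the list, had 0.03, -0.05 and 0.17. The fraction of cells in S phase was not measured.

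Markers of the cell line were present in all libraries and some changed with the HIST1H1 genes. All 7 HEK293T markers were detected in every library, summing to 548.4, 557.3 and 577.4 CPM in wild-type libraries and, in the mutant, to 397.5, 396.5 and 406.4, with VIM the most abundant. Of them VIM and NEFM were lower, with log2 fold changes of -0.93 and -1.31, and KRT8 and KRT18 higher, at 1.38 and 0.82. The 7 markers of other cell types summed to between 4.50 and 5.74 CPM in any library, with COL1A1 the most abundant and 1 or 2 of them at 0, among CD3E and HBB. COL1A1 was higher and COL3A1 lower in EAF1-mutant cells, with log2 fold changes of 0.54 and -2.18. The part of these changes in those of the HIST1H1 genes was not tested.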

How the data were processed

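Gene counts of RNA-seq were deposited by the authors as whole numbers, from reads trimmed with Trim Galore, mapped to GRCh38 with HISAT2 and counted with Rsubread. How that count treated strand and multi-mapped reads is not stated in the sources used here. ELL signal was deposited by the authors as CPM-normalized coverage (Bowtie2, GRCh38) summed over each RDH gene, neither divided by length nor by input. Counts were given for 58395 genes, of which 28025 passed the filter and were tested here with edgeR 4.0.16 in R 4.3.3 (filterByExpr, TMM, quasi-likelihood F test). DESeq2 1.42.0 was used as an alternative. The edgeR steps were tested on simulated counts. Calls needed an adjusted p below 0.01 and a log2 fold change beyond 0.5 either way. Sums, shares and ratios were compared by exact permutation (SciPy 1.17.1), and coding sequences were aligned with Biopython 1.88. Alternatives were the scaling, the tool, the filter, the length, a replicate block and leaving out each library. Further ones were a looser threshold (adjusted p below 0.05 with no fold limit) and ELL minus input. All HIST1H1 genes were named, with the nearest RDH gene on each side, the 3 most alike RDH genes of HIST1H1C, HIST1H1D and HIST1H1E and, from each list, at most the 3 genes highest in mean CPM and the 4 largest changes past the thresholds. Marker genes and the highest ELL ratio were singled out after their values were seen. Replication-independent linker histones were tested but are not reported here, and nothing is stated about their change. The members and lists were chosen with earlier results of these data known. PRO-seq, 4C-seq and biotinylation-seq of the series were not analysed here.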

Additional observations from a re-analysis of the deposited data

How the results depend on the processing

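HIST1H1T lost its call in 5 alternatives, as given above, and in those 5 the count of HIST1H1 genes called higher was 2 in place of 3. With a filter of at least 1 CPM in 3 libraries, 0 were called higher by edgeR, since HIST1H1B, HIST1H1T and HIST1H1PS1 were not tested. Without each RNA-seq library the count called higher ran from 2 to 3 and the count called lower was 3. With CPM not divided by length, 4 of 8 genes kept their place in the wild-type order. By ELL minus input, HIST1H1C ranked 1 in place of 4, HIST1H1PS2 44 in place of 32 and HIST1H1PS1 47 in place of 35. HIST1H1A had a mean ELL ratio of 1.70, but 0.204, below input, without replicate 1. Same-number replicates of the 2 groups had correlations of 0.00227, -0.0505 and 0.0246 and were not treated as paired. With a replicate block, and also with the looser threshold, 3 genes were lower and 3 higher. The summed HIST1H1 log2 ratio was -0.91 with the block and -0.79 with library totals alone. For percent of class sums, exon length in place of the authors' gene length and leaving out libraries were chosen after the data were seen. Exon length changed the difference in percent of the H2A sum from 5.83 to 4.45 and of the H3 sum from 4.72 to 3.04. For the H4 sum it changed the difference from -5.09 to -3.93, and for all core genes from 0.321 to 0.184. Leaving out each library moved the difference for all core genes to between 0.0229 and 0.567. Replicates differed by more than counting noise (chi-square per degree of freedom 2.66 to 8.14).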
